A study of Mus musculus with 64 samples.

Results

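Gene expression in the ventral tegmental area was compared between mice labelled as Clock delta 19 mutants and mice labelled as wildtype, all of which received the vehicle of the histone deacetylase inhibitor ACY957 and no drug. The 16 libraries, 11 under the mutant label (mice 36 to 39, 48 and 59 to 64) and 5 under the wildtype label (mice 10 and 13 to 16), were taken by their genotype and treatment labels from a study of 64 mice. Both groups were adult males of the strain given as 129S1/Svlm, were dosed for 14 days and were killed at zeitgeber time 6, with the last dose about 24 h earlier. RNA came from bilateral punches of 1 mm, with 1 library per mouse, so p-values measure the spread between individual mice. By its label the Clock mutant group carried the delta 19 allele, a germline allele that carriers have in every cell, and the wildtype group carried no stated mutation. The genotype of each mouse is known here from its label alone. What the vehicle contained is not given in the sources used here.

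The ventral tegmental area holds the dopamine neurons that project to the striatum and cortex, together with GABA and glutamate neurons and glia. In the circadian clock, the transcription factors CLOCK and BMAL1 (encoded by Arntl) bind E-box sequences and drive Per, Cry, Nr1d and Dec genes, whose products repress the loop, and output genes such as Dbp and Tef. The delta 19 allele loses exon 19 of Clock from the mRNA and gives a protein that still binds its partner and DNA but activates poorly. Mice with this allele are known for hyperactivity and changed dopamine neuron firing.

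The skipped exon is shown because it defines the allele. In the transcript Clock-205 the exon 19 of 23 lies at chr5:76231396-76231548 on mm10 (minus strand), holds 153 bases that code for 51 amino acids, and makes up 1.57% of the transcript's 9744 bases.
Clock exon 19: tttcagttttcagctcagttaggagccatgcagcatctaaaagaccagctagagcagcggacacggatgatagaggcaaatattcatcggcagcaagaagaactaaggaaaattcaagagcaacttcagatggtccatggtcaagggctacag
The deposited values are counts per gene, so the use of this exon could not be read from them. Clock itself (chromosome 5, 76209868 to 76304792, minus strand) was at 34.3, 77.6 and 89.5 CPM (counts scaled to 1 M counted reads) in its lowest, median and highest mutant-labelled library. In the wildtype-labelled libraries it was at 70.1, 68.7, 65.2, 64.7 and 74.2 CPM in mice 10, 13, 14, 15 and 16. Mutant-labelled mouse 64 held the lowest value, and the next under that label was 68.7 CPM. Of the 11 mutant-labelled libraries, 7 lay above the wildtype-label range, 3 within it and 1 under it. The log2 fold change, mutant label over wildtype label, was 0.10 (SE 0.11, adjusted p = 0.999 in edgeR's quasi-likelihood test with Benjamini-Hochberg adjustment), and the gene-level count therefore checks no label.

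Total counts were 23.1 M to 31.7 M in mutant-labelled libraries and 22.7 M to 27.9 M in wildtype-labelled libraries. All mice labelled wildtype in the study are numbered 1 to 24 and all labelled mutant 25 to 64, and the labels give no batch, so the effect of the genotype label and that of any factor tied to mouse number cannot be told apart. A pair of libraries stood apart over many genes. Of 13160 genes averaging at least 1 CPM, mutant-labelled mouse 64 had 848 more than 2-fold under the 16-library median, and its deviations rose with the GC content of the transcript (Spearman rho 0.714 across genes, a description, against -0.365 to 0.413 in the other 15 libraries). Wildtype-labelled mouse 13 had 140 genes at over 2 times the median, among them Slc17a7, a glutamate transporter of cortical neurons, at 242 CPM against 2.66 to 20.02 CPM in the other 4 wildtype-labelled libraries. The remaining 14 libraries had 35 to 156 genes more than 2-fold from the median in either direction.

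The labels were set against the output of the clock, with genes chosen while earlier results of these data were known. Each library was given a clock output score, its average log2 CPM over Dbp, Tef, Per2, Per3, Nr1d1, Nr1d2, Ciart and Bhlhe41. Of the 11 mutant-labelled libraries, 8 scored between 3.995 and 4.28, and mice 59, 60 and 61 scored 5.30, 5.32 and 5.37. The score was 5.45, 5.32, 5.24, 5.17 and 5.38 in wildtype-labelled mice 10, 13, 14, 15 and 16. The 8 thus lay under every wildtype-labelled library, and the 3 lay inside the wildtype-label range. No library was moved, and the tests below use the groups as labelled, except in runs said to leave libraries out. Values with only these 3 libraries left out are given beside the results as descriptions. They carry no test, because the libraries were picked by the genes described. A later run that left out the mutant-labelled vehicle mice of higher number dropped these 3 as well, and its p-values share that limit.

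**Figure D1:**
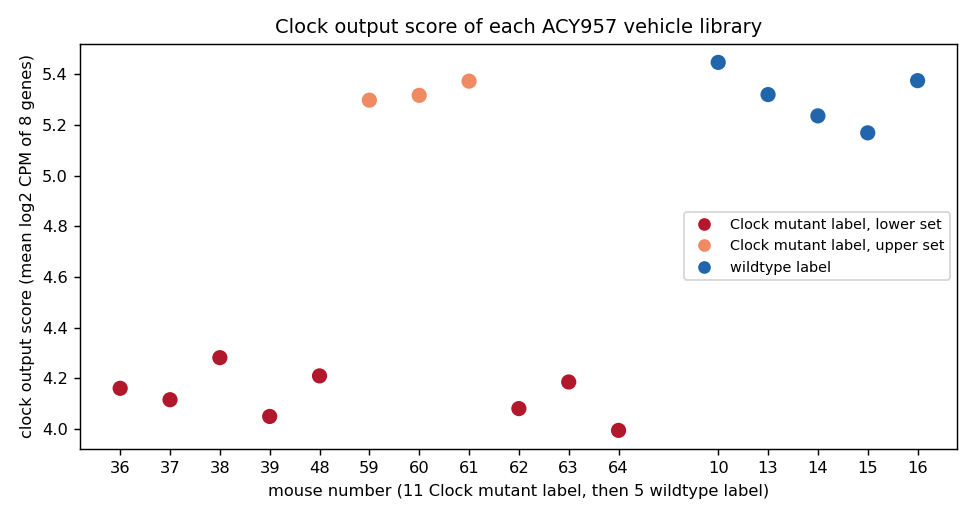
Clock output score (mean log2 CPM of 8 clock-controlled genes) of each ACY957 vehicle library, by mouse number, with the 11 Clock mutant-labelled libraries on the left and the 5 wildtype-labelled libraries on the right. Mutant-labelled mice 59, 60 and 61 lie among the wildtype-labelled libraries, and the other 8 mutant-labelled libraries lie at or under 4.28.

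Over all genes, the counts of Gapdh, the glycolytic enzyme often used as a reference gene, and Tuba1c, an alpha-tubulin, were lower under the mutant label, and no gene was higher. These were 2 of 15634 genes tested, or 0.0128%, in edgeR's quasi-likelihood test with Benjamini-Hochberg adjustment at 0.05. DESeq2 also gave 2 genes and limma voom 1. At an unadjusted p under 0.05, 322 genes (2.06%) were lower and 243 (1.55%) higher. The median log2 fold change over all genes was -0.0048, with 48% of genes higher. The counts below are read against these shares. In bulk tissue, fewer cells of a type and less RNA per cell cannot be told apart.

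Gapdh (chromosome 6, 125161715 to 125166467, minus strand) was at 3.11, 3.91 and 8.28 CPM in the lowest, median and highest mutant-labelled library, and at 7.26, 12.6, 12.1, 10.9 and 7.37 CPM in wildtype-labelled mice 10, 13, 14, 15 and 16. All mutant-labelled libraries but mouse 64 lay under the lowest wildtype-labelled library, mice 59, 60 and 61 included (5.05, 4.43 and 3.84 CPM). It fell by 1.17 on the log2 scale (SE 0.21; edgeR adjusted p = 0.00409), and the value was -1.16 without those 3 mice. The call was lost without wildtype-labelled mouse 13 (-1.07, adjusted p = 0.194, edgeR), and narrowly without mouse 14 (-1.09, adjusted p = 0.05003, edgeR). A fit of the 16 libraries alone gave an adjusted p of 0.0639 in edgeR.

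Tuba1c (chromosome 15, 99029891 to 99038110, plus strand) was at 5.54, 6.46 and 7.68 CPM in the lowest, median and highest mutant-labelled library, and at 7.26, 28.5, 9.32, 8.53 and 7.96 CPM in wildtype-labelled mice 10, 13, 14, 15 and 16. It fell by 0.94 (SE 0.16; edgeR adjusted p = 0.00267). Mouse 13 lay far above the rest, and without it the log2 fold change was -0.36 (adjusted p = 1.00, edgeR). Of the mutant-labelled libraries, 9 of 11 lay under the lowest wildtype-labelled library. Gapdh and Tuba1c have near-identical copies in the genome, so how many of their reads were counted is uncertain. Gapdh was counted at no more than 12.6 CPM in any of the 16 libraries, while the 12 glycolysis genes tested summed to 8745 to 9441 CPM under the wildtype label. Its fold change is one of the few reads counted, and whether the level of its mRNA differed was not tested. Eno1, a glycolytic gene that also has a near-identical copy, had at most 2 counts in any of the 16 libraries. Of 12 genes often used as references, 8 were lower and 4 higher with a median of -0.05. Apart from Gapdh and Tuba1c these 12 ranged from -0.09 (Hprt, of purine salvage) to 0.06 (Tuba1b, another alpha-tubulin), and Actb, cytoplasmic actin, was at -0.01. Of 12 glycolysis genes tested 8 were lower, with a median of -0.02. They reached 0.09 (Hk1, a hexokinase) at the upper end, and after Gapdh the next was Ldha, lactate dehydrogenase A, at -0.19 (unadjusted p = 0.0440, adjusted p = 0.999, edgeR).

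**Figure D2:**
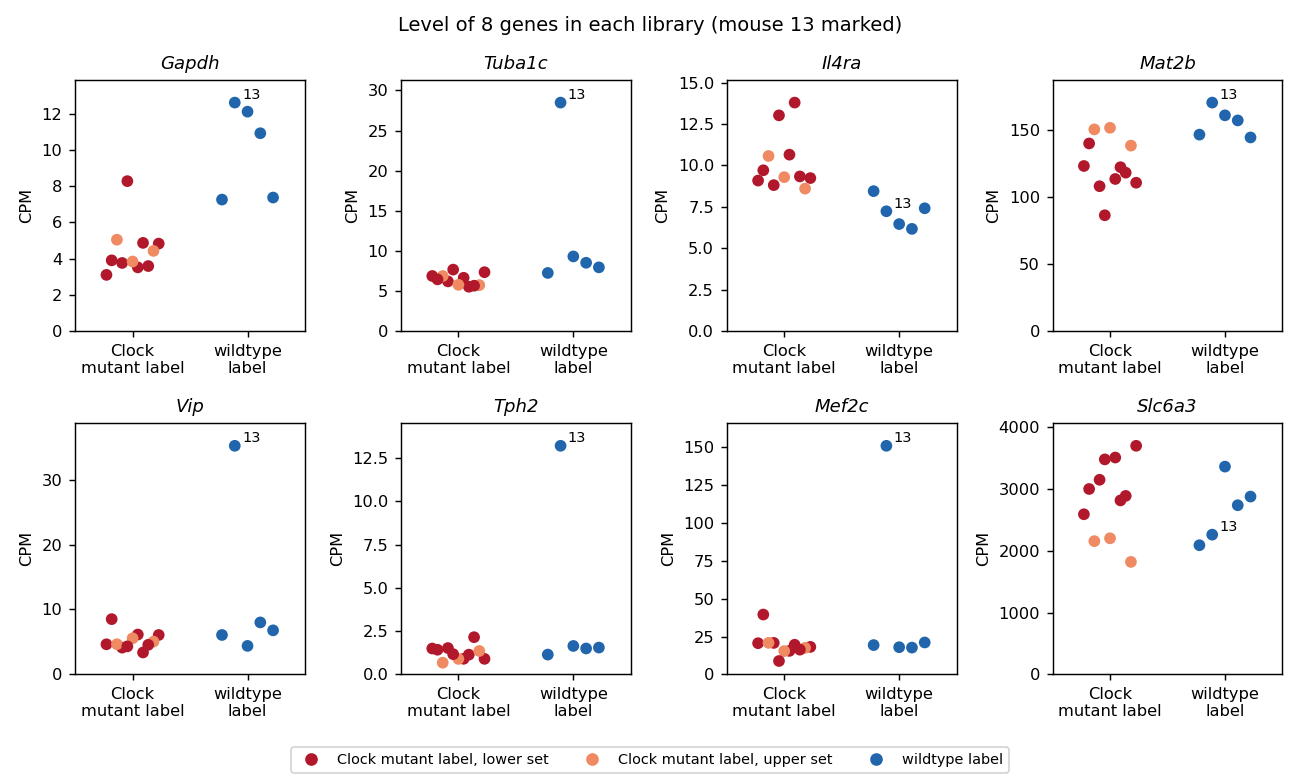
Level (CPM) of 8 genes in each library, Clock mutant label left and wildtype label right, with mice 59, 60 and 61 in orange and mouse 13 marked. Gapdh was low in mice 59, 60 and 61 as well (3.84 to 5.05 CPM), and mouse 13 was the highest library for Tuba1c (28.5 CPM), Vip (35.2 CPM), Tph2 (13.2 CPM) and Mef2c (151 CPM).

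Of 29 clock genes, 23 were lower and 6 higher under the mutant label, with a median log2 fold change of -0.32. None passed the adjusted test over all 11 mutant-labelled libraries, while 15 were lower and 2 higher at an unadjusted p under 0.05. In 13 of the 29 genes the 8 mutant-labelled libraries other than mice 59, 60 and 61 all lay under the lowest wildtype-labelled library, and in Arntl and Nfil3 all 8 lay above the highest. Of the 13, 8 are the genes of the clock output score by which the 8 libraries were told from the 3, and the other 5, of 21 clock genes outside the score, were Cry2, Bhlhe40, Hlf, Wee1 and Coq10b. Over all genes tested, 64 (0.409%) had these 8 libraries all under the lowest wildtype-labelled library and 30 (0.192%) all above the highest. No clock gene separated all 11 from all 5, and over all genes 2 (0.0128%) lay lower without overlap and 4 (0.0256%) higher.

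Among the activators, Arntl (chromosome 7, 113207465 to 113314126, plus strand) was at 13.9, 23.8 and 25.5 CPM in its lowest, median and highest mutant-labelled library, and at 16.02, 15.8, 13.8, 14.9 and 11.4 CPM in wildtype-labelled mice 10, 13, 14, 15 and 16. The 3 lowest mutant-labelled values were those of mice 59, 60 and 61, at 13.9, 15.3 and 15.7 CPM, inside the wildtype-label range. The log2 fold change was 0.55 (SE 0.16, unadjusted p = 0.000846, adjusted p = 0.601, edgeR) and 0.71 without those 3 mice. Npas2, a Clock paralog, was at 0.28 (SE 0.20, unadjusted p = 0.172, edgeR). Rora and Rorb, nuclear receptors that activate Arntl, were at -0.10 and -0.06. Of the 7 activators 3 were higher and 4 lower, with a median of -0.06.

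Every one of the 5 period and cryptochrome repressors was lower, at a median of -0.46, and 3 had an unadjusted p under 0.05. Per2 (chromosome 1, 91415982 to 91459324, minus strand) was at 1.49 to 2.52 CPM in 8 mutant-labelled libraries and at 7.71, 7.14 and 8.21 CPM in mice 59, 60 and 61, against 8.27, 6.94, 5.29, 6.21 and 8.80 CPM in wildtype-labelled mice 10, 13, 14, 15 and 16. The mutant-labelled group therefore held a low and a high level of Per2 with nothing in between, and its log2 fold change of -0.995 (SE 0.35; edgeR adjusted p = 0.999) averages over both. Without those 3 mice it was -1.82. Cry2, which with PER proteins blocks CLOCK, was at 51.8 to 63.9 CPM in the same 8 libraries and at 94.9 to 100.4 CPM in the 3, against 84.6 to 102.7 CPM in the wildtype-labelled libraries. Its log2 fold change was -0.46 (SE 0.15), and -0.71 without the 3. Per3 differed in detail. Mice 59 and 60 (6.96 and 6.74 CPM) lay under the lowest wildtype-labelled library (7.61 CPM) and only mouse 61 (7.61 CPM to 3 digits) reached its range, for a log2 difference of -0.74 (SE 0.22; edgeR adjusted p = 0.780). Per1 and Cry1 overlapped between the groups, at -0.30 and -0.09.

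The REV-ERB, DEC and CHRONO repressors were all lower (5 members, median -0.45), each at an unadjusted p under 0.05. Ciart (chromosome 3, 95878503 to 95882251, minus strand), which encodes the CLOCK repressor CHRONO, was at 1.19 to 2.15 CPM in 8 mutant-labelled libraries and at 8.11, 9.70 and 8.96 CPM in mice 59, 60 and 61. In wildtype-labelled mice 10, 13, 14, 15 and 16 it was at 7.53, 10.3, 7.68, 6.29 and 10.1 CPM. It had the lowest log2 fold change of the 29 genes, -1.22 (SE 0.46; edgeR adjusted p = 0.999), and -2.38 without the 3 mice. Nr1d2, a REV-ERB receptor that represses Arntl, was at 39.6 to 127 CPM in the 8 and at 192 to 202 CPM in the 3, against 186 to 215 CPM under the wildtype label. The lowest value was that of mouse 64, and the next was 90.6 CPM. Nr1d1, the other REV-ERB, was at -0.40 (SE 0.17), and the DEC repressors Bhlhe40 and Bhlhe41 at -0.32 (SE 0.13) and -0.45 (SE 0.14).

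The PAR bZIP factors, which carry clock time to output genes through D-box sequences, were lower, and their repressor was higher. Dbp (chromosome 7, 45705088 to 45710203, plus strand) was at 27.7 to 46.9 CPM in 8 mutant-labelled libraries and at 84.1, 68.7 and 72.1 CPM in mice 59, 60 and 61, against 86.7, 74.8, 86.8, 66.6 and 76.8 CPM in wildtype-labelled mice 10, 13, 14, 15 and 16. The log2 fold change was -0.80 (SE 0.27; edgeR adjusted p = 0.938), and -1.21 without the 3. Tef was at -0.45 (SE 0.16) and Hlf at -0.41 (SE 0.12), with all 8 libraries under the lowest wildtype-labelled one in both genes. Nfil3, which represses through the same D-box, was at 8.12 to 10.5 CPM in the 8, at 7.12, 7.72 and 5.86 CPM in the 3, and at 5.89 to 7.08 CPM in the wildtype-labelled libraries. It was the other clock gene higher at an unadjusted p under 0.05, at a log2 fold change of 0.42 (SE 0.17).

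Of 8 further output genes, 6 were lower and 2 higher, with a median of -0.25. Usp2 (a ubiquitin protease), Wee1 (a kinase that holds back mitosis), Coq10b (of ubiquinone function) and Klf10 (a zinc finger factor) were at -0.43, -0.36, -0.35 and -0.42, each at an unadjusted p under 0.05. Nampt, of NAD salvage, and Klf9, a glucocorticoid-responsive factor, were at -0.10 and 0.02. Nmu, which encodes the peptide neuromedin U, had the highest value of the 29 genes, 1.08 (SE 0.55), and it rested on mouse 37 at 6.01 CPM, while the median was 0.597 CPM under the mutant label and 0.561 CPM under the wildtype label. Genes that modify clock proteins after translation, such as the casein kinases Csnk1d and Csnk1e, lay between -0.16 and 0.02 in 8 of 8 members, with a median of -0.04 and 0 at an unadjusted p under 0.05.

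**Figure D3:**
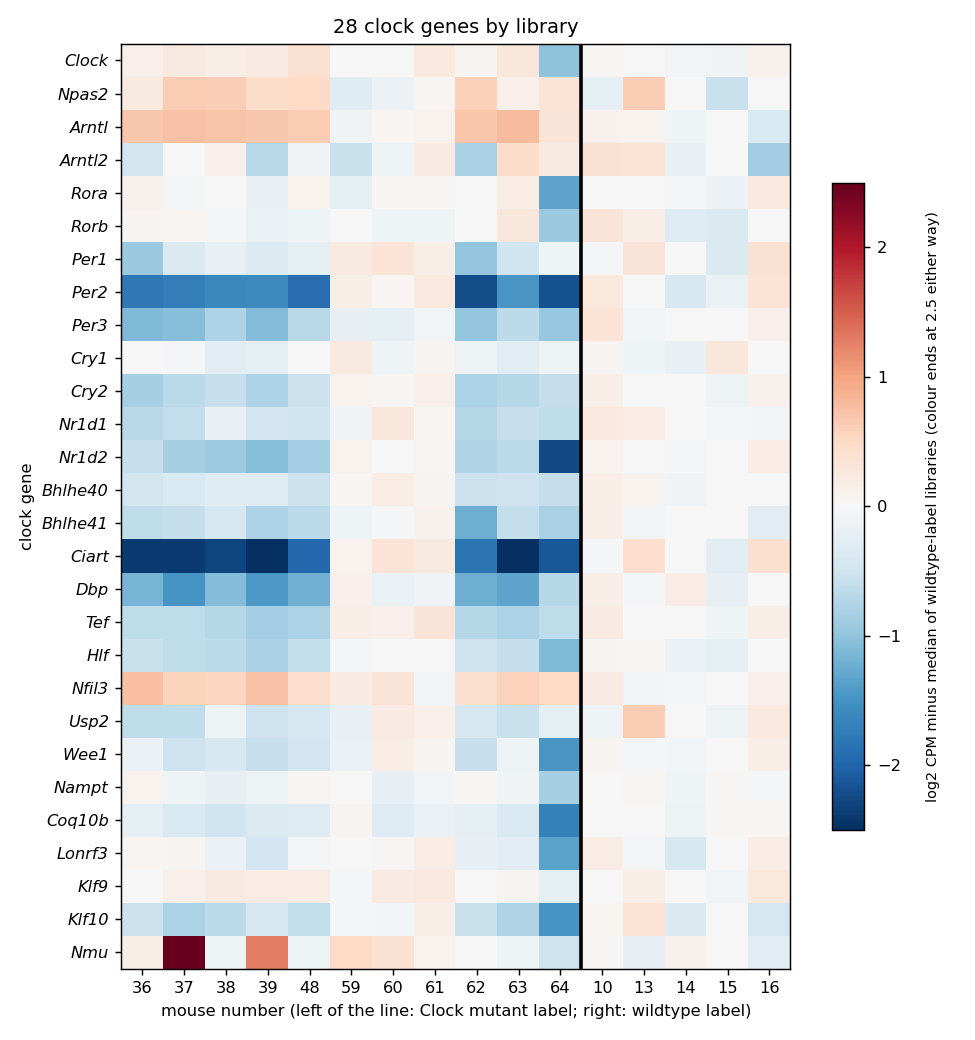
Level of 28 of the 29 clock genes (rows) in each library (columns, mouse number), as log2 CPM minus the median of the 5 wildtype-labelled libraries. Left of the line are 11 Clock mutant-labelled libraries and right of it 5 wildtype-labelled ones, and the columns of mice 59, 60 and 61 are near the wildtype-label colours in Per2, Ciart and Dbp.

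The promoter windows of Ciart, Bhlhe41 and Tef are shown as examples of members that were lower in all 8 libraries and hold the E-box core CACGTG, given in capitals. Coq10b meets the same description and is not printed. The windows, 250 bases before to 50 after the annotated start, are from RefSeq on GRCm38.p6, and run at chr3:95882179-95882478 (Ciart, minus strand), chr6:145865371-145865670 (Bhlhe41, minus strand) and chr15:81802423-81802722 (Tef, plus strand, the first of its listed starts).
Ciart: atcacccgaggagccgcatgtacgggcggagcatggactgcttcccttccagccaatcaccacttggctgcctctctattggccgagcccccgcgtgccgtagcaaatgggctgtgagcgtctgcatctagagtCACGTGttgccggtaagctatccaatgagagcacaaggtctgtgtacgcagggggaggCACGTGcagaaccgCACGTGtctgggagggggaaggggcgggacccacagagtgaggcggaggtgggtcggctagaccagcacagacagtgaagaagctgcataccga
Bhlhe41: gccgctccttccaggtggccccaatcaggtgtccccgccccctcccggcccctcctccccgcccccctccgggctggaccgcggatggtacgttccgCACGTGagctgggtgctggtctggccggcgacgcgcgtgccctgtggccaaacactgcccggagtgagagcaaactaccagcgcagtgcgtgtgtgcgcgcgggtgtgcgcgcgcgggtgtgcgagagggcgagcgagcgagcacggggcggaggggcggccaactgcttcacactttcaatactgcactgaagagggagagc
Tef: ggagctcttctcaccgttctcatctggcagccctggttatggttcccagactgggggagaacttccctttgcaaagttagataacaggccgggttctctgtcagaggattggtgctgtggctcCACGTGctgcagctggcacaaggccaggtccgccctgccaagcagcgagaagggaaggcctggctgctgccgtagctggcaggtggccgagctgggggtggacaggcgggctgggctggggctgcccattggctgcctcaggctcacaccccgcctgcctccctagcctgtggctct
CACGTG reads the same on both strands. It occurs 3 times in the Ciart window, starting 116, 58 and 44 bases before the start, and 153 and 127 bases before the start in Bhlhe41 and Tef. Of the 29 clock genes, 24 matched the table and 8 held the motif (Per1, Cry1, Bhlhe41, Ciart, Tef, Coq10b, Lonrf3 and Nmu), in at least 1 of their windows, against 8.09% of all 27025 genes in the table counted the same way. The D-box sequence TTACGTAA, also the same on both strands, was in 0 of these 24 genes' windows and in those of 0.126% of all genes. A match describes the letters and not binding, and Per1, Cry1, Lonrf3 and Nmu hold the motif with an unadjusted p over 0.05. Per3, Cry2, Nr1d1, Nr1d2, Dbp and Hlf were lower in all 8 libraries and had no CACGTG in their windows. Per2, Bhlhe40, Wee1 and Klf10 were among the clock genes without a listed window.

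Genes outside the clock lists also had these 8 libraries all past the wildtype-label range. They are among the 64 genes (0.409%) lower and 30 (0.192%) higher in this way. The few named here were picked after their values were seen. Eif5a2, a translation factor, was at 34.4 to 96.9 CPM in 8 mutant-labelled libraries and at 216, 258 and 246 CPM in mice 59, 60 and 61, against 234 to 307 CPM under the wildtype label. Mthfd1l, a mitochondrial folate enzyme, was at 4.42 to 6.06 CPM in the 8, at 18.6 to 19.99 CPM in the 3, and at 17.9 to 20.4 CPM under the wildtype label. In Mthfd1l the 3 libraries lay within the wildtype-label range, and in Eif5a2 1 of them lay under it. Cndp2, a dipeptidase, and the interferon-induced Ifit3b also had all 8 under the lowest wildtype-labelled library, with log2 fold changes of -0.46 and -0.72 over all 11. Of 11 interferon-induced genes 7 were higher and 4 lower with a median of 0.05, and Ifit3 and Ifit3b were the 2 lower at an unadjusted p under 0.05.

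The test was repeated with every mutant-labelled vehicle mouse numbered 48 or above left out, 16 libraries over both vehicles. The reason was that the labels give more mutant vehicle mice than the 8 per group of the design. The cut removed more mice than that excess. It left mutant-labelled mice 36 to 39 against the same 5 wildtype-labelled mice. Mice 59, 60 and 61, which had been picked by the genes of the clock output score, were among those removed. The p-values of this run are therefore descriptions for those genes and for genes that differ in the same libraries. For these genes they do not test the label. Of 15551 genes, 22 passed (0.141%), 19 lower and 3 higher, and none of them was Gapdh or Tuba1c. Clock genes made up 10 of the 22. Ciart fell by 2.53 (SE 0.46, adjusted p = 0.00475), Nr1d2 by 0.88 (SE 0.15, adjusted p = 0.00261) and Cry2 by 0.73 (SE 0.14, adjusted p = 0.00554), and Arntl rose by 0.75 (SE 0.15, adjusted p = 0.0112), all in edgeR. Eif5a2 had the smallest p, and fell by 1.65 (SE 0.21; edgeR adjusted p = 1.23e-05). Mthfd1l, Cndp2 and Ifit3b were also among the 22, as were Ier3, an immediate early response gene, Mat2b, a subunit of the enzyme that makes S-adenosylmethionine, and Hif1a, the hypoxia factor.

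Few genes separated all 11 mutant-labelled libraries, mice 59, 60 and 61 included, from all 5 wildtype-labelled ones. Of 15634 genes tested, 4 (0.0256%) were higher and 2 (0.0128%) lower without overlap, and whether this exceeds chance was not tested. Il4ra (chromosome 7, 125552120 to 125579474, plus strand), the alpha chain of the interleukin 4 receptor, was at 8.60, 9.34 and 13.8 CPM in its lowest, median and highest mutant-labelled library, and at 8.45, 7.24, 6.46, 6.17 and 7.42 CPM in wildtype-labelled mice 10, 13, 14, 15 and 16. All 11 lay above all 5, and the log2 fold change of 0.51 (SE 0.14, unadjusted p = 0.000661) had an adjusted p of 0.574 in edgeR. Srf, a transcription factor of the cytoskeleton, Dag1, dystroglycan, and Trp63, a p53 relative, were the others that were higher without overlap, by 0.23, 0.16 and 0.50. Nup88, a nuclear pore protein, and Tjp3, a tight junction protein at under 1 CPM, were lower without overlap, at -0.12 and -0.71. None of these 6 passed the adjusted test, and 5 were named for this absence of overlap after their values were seen.

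Krt28, a keratin at under 1 CPM, had the smallest p among higher genes, at a log2 fold change of 1.70 (SE 0.37; edgeR adjusted p = 0.101) and 10 of 11 mutant-labelled libraries above the highest wildtype-labelled one. Other genes with small p in the higher direction were Pcdhb7 (a protocadherin, 0.41), Fam101b (also Rflnb, an actin regulator, 0.39), Scd3 (a stearoyl-CoA desaturase, 0.49), Rpph1 (the RNA of RNase P, 1.63) and the tubulin pseudogene Tubb2a-ps2 (0.39). Rpph1 is not polyadenylated, and its mutant-labelled median of 1.34 CPM lay near the wildtype-labelled median of 0.968 CPM, with mice 39 and 61 at 13.7 and 9.48 CPM. In the lower direction Mat2b was at 86.5 to 152 CPM under the mutant label and 145 to 171 CPM under the wildtype label, for a log2 value of -0.33 (SE 0.08; edgeR adjusted p = 0.350). Ier3 and Ccdc85b, a repressor of transcription, were at -0.30 and -0.48, each with 9 of 11 libraries under the lowest wildtype-labelled one. Krt28 passed without wildtype-labelled mouse 15 (adjusted p = 0.0463, edgeR), and Ier3 without mutant-labelled mouse 60 (adjusted p = 0.0363, edgeR).

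Dopamine neuron genes showed no shared direction. Th, which encodes the enzyme that limits dopamine synthesis, was at 704, 1061 and 1558 CPM in the lowest, median and highest mutant-labelled library, and at 790, 1117, 1349, 1002 and 1030 CPM in wildtype-labelled mice 10, 13, 14, 15 and 16. Slc6a3, the dopamine transporter, had its 3 lowest values under the mutant label in mice 59, 60 and 61 (2157, 1821 and 2203 CPM), while the other 8 lay between 2592 and 3700 CPM and the wildtype-labelled libraries between 2091 and 3363 CPM. Both defining markers of these neurons were thus present in every library. The log2 fold change of Slc6a3 was 0.09 (SE 0.50), and that of Th 0.06 (SE 0.45). Of 22 dopamine neuron genes 11 were higher and 11 lower, between -0.21 (En2) and 0.30 (Lmx1a), both midbrain transcription factors, with a median of 0.02 and 0 at an unadjusted p under 0.05. These SE come from a spread fitted over all 64 libraries. Within the 2 groups Th averaged 1101 CPM (SD 293.3) under the mutant label and 1058 CPM (SD 202.5) under the wildtype label. By this test a difference in Th of the size of its SE was not detectable.

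Of 11 tested genes of dopamine receptors and their signalling, 9 were higher, with a median of 0.24 and 1 at an unadjusted p under 0.05. That gene was Rgs9, which speeds the end of receptor signalling in striatal neurons, at 0.34 (SE 0.13; edgeR adjusted p = 0.999). Drd1, the D1 receptor, was at 0.39 and Adora2a, an adenosine receptor of striatal neurons, at 0.70. Genes of GABA neurons lay between -0.24 and 0.07, with 2 higher and 3 lower and 0 at an unadjusted p under 0.05.

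The genes of lowest p after Gapdh and Tuba1c in the lower direction were Vip and Slc6a4, followed by Tph2 within the neuronal lists, and wildtype-labelled mouse 13 was the highest of the 16 libraries in each. Vip, a neuropeptide, was at 3.38, 4.65 and 8.51 CPM in its lowest, median and highest mutant-labelled library, and at 6.07, 35.2, 4.39, 8.01 and 6.79 CPM in wildtype-labelled mice 10, 13, 14, 15 and 16. Its log2 fold change was -1.22 (SE 0.27; edgeR adjusted p = 0.101). Slc6a4, the serotonin transporter, was at most 0.258 CPM in the mutant-labelled libraries, against 7.68 CPM in wildtype-labelled mouse 13 and at most 0.0748 CPM in the other wildtype-labelled libraries. Tph2, the enzyme of serotonin synthesis in neurons, was at 0.676 to 2.15 CPM under the mutant label, against 13.2 CPM in mouse 13 and 1.14 to 1.64 CPM in the other 4 wildtype-labelled libraries. Without mouse 13 the log2 fold change was -0.28 for Vip and -0.23 for Tph2 (adjusted p = 0.9999 for both, edgeR), and the sign of Slc6a4 turned, to 0.24. Vip passed without wildtype-labelled mouse 10, 14 or 16 or mutant-labelled mouse 62, each time with mouse 13 still in (adjusted p = 0.0133 to 0.0462, edgeR). The other serotonin neuron genes, Gata2, Gata3, Htr1a and Htr5b, lay between -0.18 and 0.18, and mouse 13 was also highest in Mef2c and Tbr1, factors of cortical neurons (151 and 10.2 CPM), and lowest in Barhl1, a factor of the subthalamic and hypothalamic region (0.373 CPM). Its part in the calls of Gapdh and Tuba1c is given by the values without it above.

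Of 12 microglia genes 11 were lower (median -0.14), and 2 had an unadjusted p under 0.05, against 2.06% of all genes. P2ry12, the purinergic receptor of resting microglia, was at 21.9, 50.8 and 64.7 CPM in its lowest, median and highest mutant-labelled library, and at 52.8 to 73.9 CPM in the wildtype-labelled ones, for -0.35 (SE 0.13; edgeR adjusted p = 0.999). Tmem119, another marker of these cells, was at -0.23 (SE 0.09), and 6 of 11 mutant-labelled libraries lay under the lowest wildtype-labelled one in both genes. The summed level of the 12 genes was 630 to 826 CPM under the mutant label and 735 to 876 CPM under the wildtype label, so the groups overlapped.

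Other glial and vascular lists had medians near 0. Of 10 astrocyte genes 8 were higher, with a median of 0.06, and Gfap, the filament of reactive astrocytes, was at 0.62 with an unadjusted p of 0.0839 (edgeR). Gfap was at 52.1 to 90.7 CPM in mice 59, 60 and 61 and at 129 to 329 CPM in the other 8 mutant-labelled libraries. Under the wildtype label it was at 206 CPM in mouse 13 and at 75.3 to 104.9 CPM in the other libraries. Oligodendrocyte genes were split 6 and 6 with a median of 0.00. Of 7 precursor genes 6 were higher, and Gpr17, a receptor of newly formed oligodendrocytes, was at 31.9 to 51.2 CPM under the mutant label and 25.1 to 37.5 CPM under the wildtype label, at 0.39 (SE 0.17, unadjusted p = 0.0275, edgeR). Endothelial and mural genes had a median of 0.04, and Rgs5, a pericyte gene, was at -0.27 (SE 0.12). In Rgs5 the 8 mutant-labelled libraries other than mice 59, 60 and 61 all lay under the lowest wildtype-labelled one.

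All 7 ependymal and choroid plexus genes were higher, with a median of 1.36, and 2 had an unadjusted p under 0.05. These were Tmem212 and Ccdc153, of ciliated ependymal cells, at 3.53 (SE 1.57) and 4.52 (SE 1.83). Mutant-labelled mice 38 and 39 had Tmem212 at 6.25 and 4.11 CPM, with a mutant-label median of 0.236 CPM, against 0 to 0.179 CPM in the wildtype-labelled libraries. Ccdc153 was at 0 in 3 of the 5 wildtype-labelled libraries and at most 0.187 CPM in the others, so the fitted sizes depend on the prior count and are no bound. Ttr, of the choroid plexus, was spread over both groups, from 0.0746 to 43.2 CPM under the mutant label and from 0.374 to 12.6 CPM under the wildtype label. Of 9 tested hypothalamic peptides 4 were higher and 5 lower, Trh being the 1 with an unadjusted p under 0.05, and its -1.57 went with mouse 13 at 14.1 CPM against 0.461 to 1.16 CPM in the other wildtype-labelled libraries. Haemoglobin genes had 0 counts in all 16 libraries. Alas2, the other gene of the blood list, was at 3.62 to 8.345 CPM under the mutant label and 6.62 to 10.3 CPM under the wildtype label. Why the haemoglobin genes had no counts was not tested.

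The 11 histone deacetylase genes, a family that holds the targets of the study's drugs and other members, lay between -0.11 and 0.17, with 8 higher and a median of 0.04. Hdac1, a class I enzyme, was at 16.97, 18.3 and 22.03 CPM in its lowest, median and highest mutant-labelled library, and at 17.4, 16.6, 17, 16.9 and 17.3 CPM in wildtype-labelled mice 10, 13, 14, 15 and 16. It lay above the highest wildtype-labelled library in 10 of 11, at a log2 fold change of 0.15 (SE 0.05, unadjusted p = 0.00458, adjusted p = 0.952, edgeR). Hdac11, the class IV enzyme, was at 0.12 (SE 0.05), and the class I enzymes Hdac2 and Hdac3 were at -0.11 and 0.01. Of 13 immediate early genes 10 were lower (median -0.16) with 1 at an unadjusted p under 0.05, Egr4 at -0.96. Egr4 was at 0.197 to 1.04 CPM under the mutant label, against 3.02 CPM in wildtype-labelled mouse 13 and 0.225 to 0.545 CPM in the other 4 wildtype-labelled libraries, and without mouse 13 its sign turned, to 0.22. The glucocorticoid-responsive list had 9 of 13 higher (median 0.11) and 0 at that level.

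**Figure D4:**
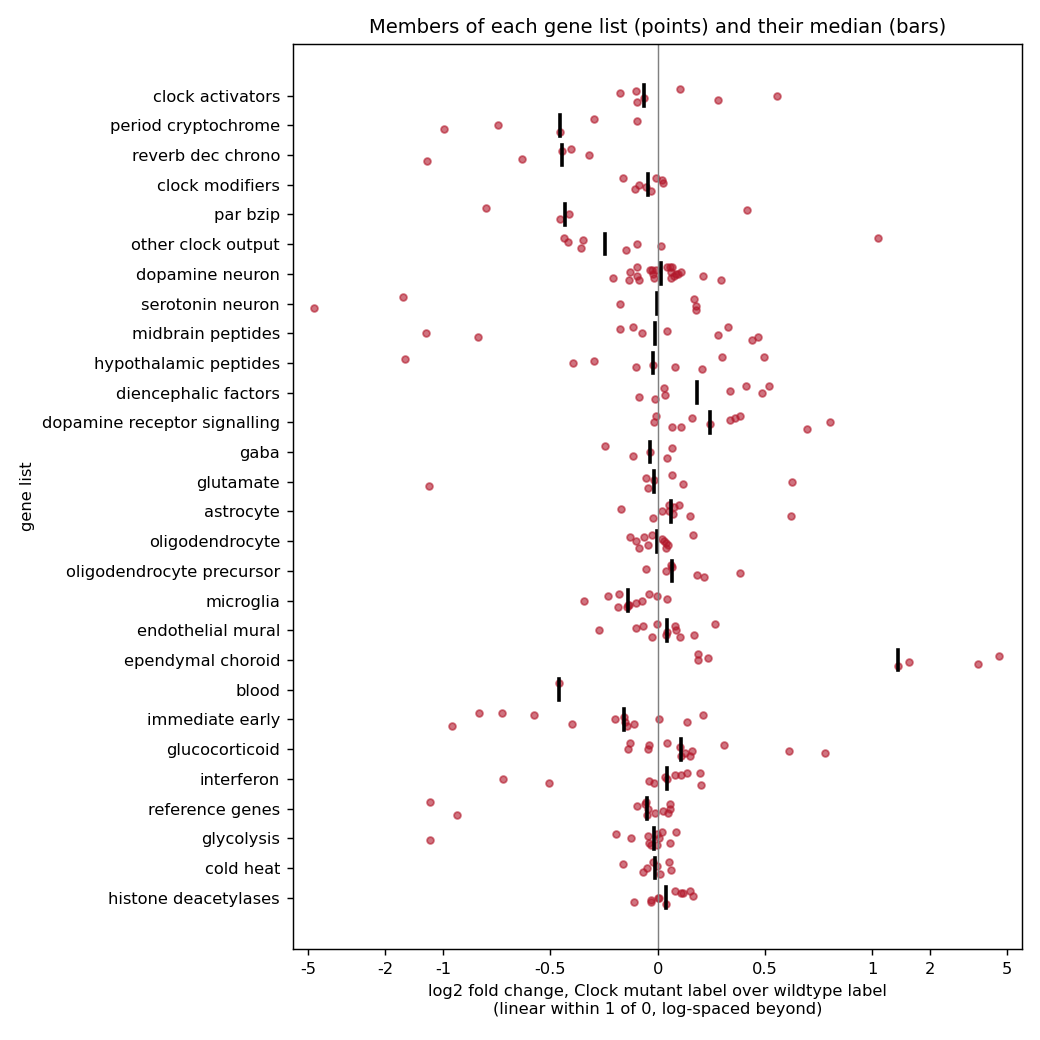
Log2 fold change, Clock mutant label over wildtype label, of each tested member (points) of 28 gene lists, with the list's median (bars), on an axis that is linear within 1 of 0. The medians of the period and cryptochrome, REV-ERB and PAR bZIP lists lie between -0.46 and -0.43, that of dopamine neuron genes is 0.02, and that of ependymal and choroid genes is 1.36.

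Genes near Clock were looked at because they travel with its allele. Of 63 tested genes that start within 10 Mb of it, 28 were higher, with a median of -0.01. At an unadjusted p under 0.05 there were 3 (4.76%), namely Ppat, of purine synthesis, at -0.19, and Uchl1os and Spata18 at 1.96 and 3.16. None passed the adjusted test or separated the groups without overlap.

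The same contrast of labels in the other treatments uses other mice, and the values were set side by side. With VPA vehicle (13 mutant-labelled and 3 wildtype-labelled libraries) 1 gene passed (0.00640%), under ACY957 (8 and 8) 0 passed (0%), with 757 at an unadjusted p under 0.05 and the smallest adjusted p at 0.0851 in edgeR, and under VPA (8 and 8) 157 passed (1.00%). Of the 29 clock genes, 9 were lower and 1 higher at an unadjusted p under 0.05 with VPA vehicle, where 2.11% of all genes were lower and 3.04% higher. Under ACY957 these counts were 15 and 3, against 2.67% and 2.17% of all genes, and under VPA 16 and 2, against 6.32% and 9.36%. Their median was -0.26 with VPA vehicle, -0.24 under ACY957 and -0.26 under VPA, beside -0.32 with ACY957 vehicle. Under VPA 9 clock genes fell and 1 rose by the adjusted test.

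Per2 had a log2 fold change of -0.995 with ACY957 vehicle, -1.04 (SE 0.41) with VPA vehicle, -1.09 (SE 0.35) under ACY957 and -1.42 (SE 0.34) under VPA. Ciart, at -1.22 with ACY957 vehicle, was at -0.54 (SE 0.55), -1.60 (SE 0.47) and -1.76 (SE 0.47) in that order. With VPA vehicle Ciart spanned 0.963 to 12.65 CPM under the mutant label (median 2.05 CPM) and 5.99 to 8.07 CPM under the wildtype label. Across all 64 libraries the widest gap in the clock output score lay between 4.33 and 4.91. Above it were 12 mutant-labelled and 23 wildtype-labelled libraries, and below it 28 and 1. Mice 59, 60 and 61 are among those 12. How this mixture shapes the value of each treatment was not tested. Gapdh was lower in each of the other treatments, at -0.81 (SE 0.25), -0.91 (SE 0.21) and -1.04 (SE 0.20), and passed under VPA (adjusted p = 0.00311, edgeR) and not with VPA vehicle or under ACY957 (adjusted p = 0.913 and 0.186, edgeR). Tuba1c was at -0.35, -0.34 and -0.51, and passed in none of the 3.

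The differences between these contrasts were tested as interactions. Between ACY957 vehicle and VPA vehicle edgeR passed 0 genes (0%), and 488 had an unadjusted p under 0.05. Against ACY957 it was 0 (0%), with 287 at that level, and against VPA 0 (0%), with 560 at that level. DESeq2 and voom also gave 0 in all 3. For Per2 the difference between ACY957 vehicle and VPA was 0.43 (SE 0.50), and for Tuba1c the difference between ACY957 vehicle and ACY957 was -0.60 (SE 0.22, unadjusted p = 0.00975, adjusted p = 1.00, edgeR). The wide SE of the clock genes in these differences covers sizes near those of the contrasts themselves.

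**Figure D5:**
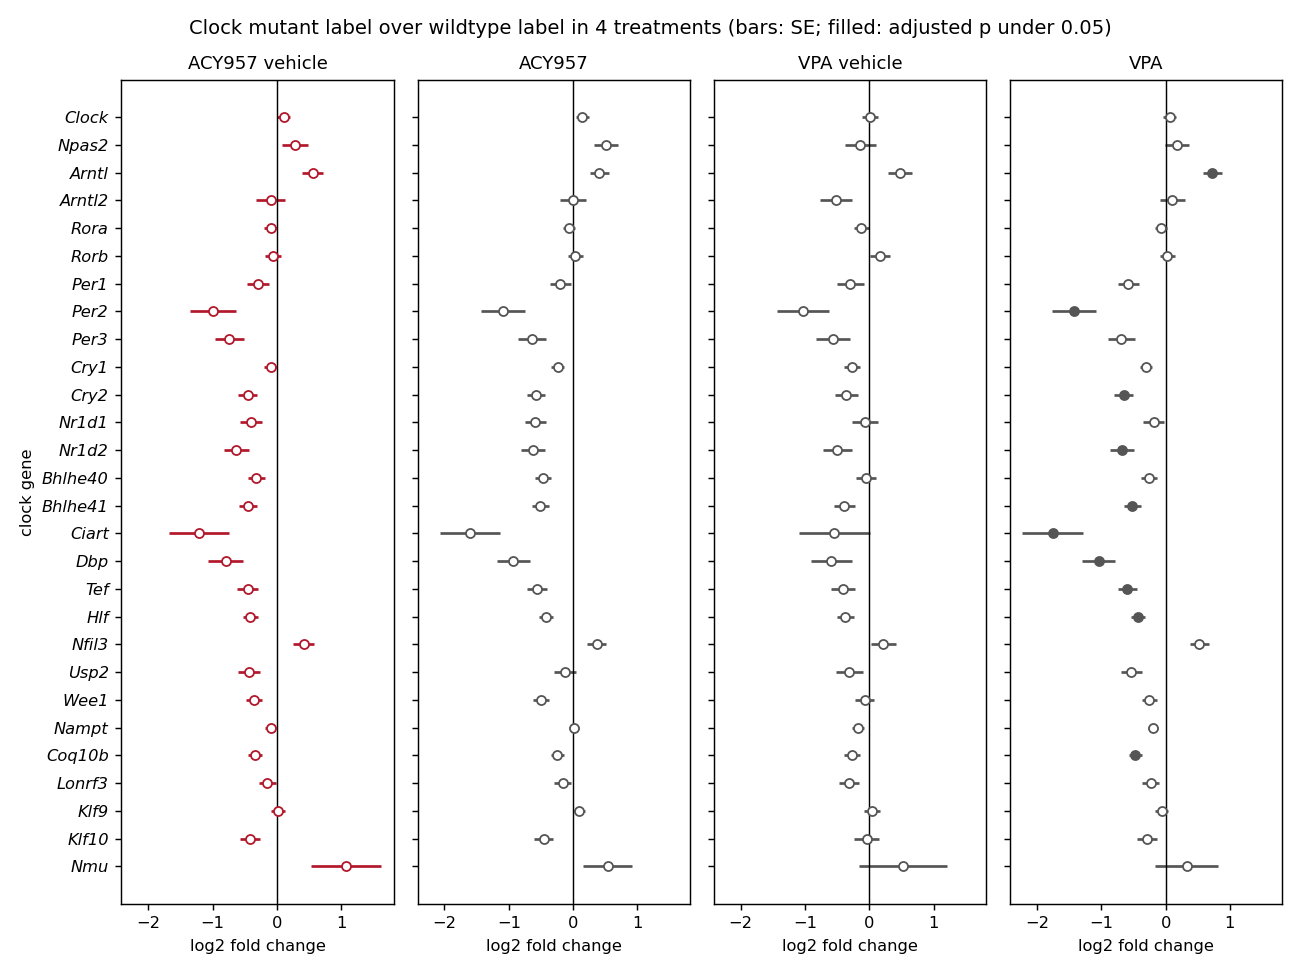
Log2 fold change with SE of 28 of the 29 clock genes, Clock mutant label over wildtype label, in ACY957 vehicle (red), ACY957, VPA vehicle and VPA mice, which share no library. Filled points have an adjusted p under 0.05, and they are the 10 under VPA, while the points of Per2 lie between -1.42 and -0.995 in all 4 panels.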

How the data were processed

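Total RNA of ventral tegmental area punches was sequenced in 64 mice, 75 bases per read, from stranded poly(A) libraries, per the labels' protocols. The authors deposited 1 table of raw counts per gene symbol (24421 symbols), with no normalization. Its making is given as alignment to mm10 by TopHat2 (version 2.0.9) after FastQC (version 0.11.3), then counting by HTSeq (version 0.6.1, union mode) per the series' design text, and as FastQC, Trimmomatic, HISAT2 and HTSeq per the submitters' processing notes, so the aligner differs between sources. A human genome is also named as a target there. Reads that fit several near-identical genes may be lost or split by such counting. The authors' text states 30 to 40 M reads per sample, and the 16 libraries compared held 22.7 M to 31.7 M counts, so that 1 TMM-scaled CPM stands for 22.7 to 33.3 counts.

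Labels set the groups. The test was edgeR's quasi-likelihood F test (edgeR 4.0.16 in R 4.3.3, TMM scaling, filterByExpr), fitted to all 64 libraries at once as 8 group means, on 15634 genes. Benjamini-Hochberg adjustment ran over all of these, at 0.05. An SE was approximated as the absolute log2 value divided by the root of F. CPM are TMM-scaled. Gene positions are those of GENCODE M21, which 23376 symbols matched. The procedure was tested on simulated counts. Alternatives were RLE scaling, DESeq2 1.42.0, limma voom (limma 3.58.1), no filter on low counts, the 16 libraries alone, Th or Tph2 as a covariate, omission of the mutant-labelled vehicle mice numbered 48 or above (16 libraries), and omission of each library. Omission of mice 13 and 64 together was added after seeing the data.

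The members, lists and tests were chosen with earlier results of these data known. Named genes were Clock, those past the threshold, the 8 of smallest p in each direction without predicted genes, all members of 5 clock lists, Th, Slc6a3, Cck, Tph2, Slc6a4 and Vip, and up to 4 members of each other list with the smallest unadjusted p under 0.05, which gave 62. Genes outside this rule are said to be chosen after their values were seen, or are named as ends of a list's range, as cell type markers or as non-overlapping. A clock gene that the list counts hold is not reported here by name.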

Additional observations from a re-analysis of the deposited data

Results flagged for a closer look

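Among the named genes, 6 had a wildtype-labelled library far from the other 4 on the log2 CPM scale. Its gap to its nearest neighbour was over 0.71 of the group's range. This is Dixon's criterion for 5 values, which chance meets in about 1 of 20 groups for genes not picked by the data. That rate does not hold here, because the genes were named with these data known, many by a small p in this contrast. They also share the same libraries, so the 6 are not independent. In 5 of the 6 the far library was mouse 13. Tuba1c was at 28.5 CPM there, against 7.26 to 9.32 CPM in the others. Vip was at 35.2 CPM against 4.39 to 8.01 CPM, and Slc6a4 at 7.68 CPM against 0 to 0.0748 CPM. Tph2 was at 13.2 CPM against 1.14 to 1.64 CPM, and Trh at 14.1 CPM against 0.461 to 1.16 CPM. Ldha was low in mouse 16, at 206.6 CPM against 243 to 258 CPM. On the CPM scale 8 genes met the criterion, these 6 and also Sst (116.7 CPM in mouse 13 against 19.02 to 36.1 CPM) and Egr4 (3.02 CPM in mouse 13 against 0.225 to 0.545 CPM).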

How the results depend on the processing

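The count of 2 genes was the same with RLE scaling, DESeq2, no filter on low counts and Th as a covariate, with both genes shared. It was 1 with limma voom, 0 with the compared libraries alone, 0 with Tph2 as a covariate, 1 (Gapdh) without mice 13 and 64, and 22 without the mutant-labelled vehicle mice numbered 48 or above, 0 of them shared. Leaving out 1 library gave 0 to 3 genes, with 0 only without wildtype-labelled mouse 13. The interaction counts stayed at 0 in each alternative run for them. Signs turned with a covariate for Th (-1.28e-05, itself), and with Tph2 for Tph2 (0.00102, itself), Slc6a4 (0.48) and Cck (0.24). Without mice 13 and 64 they turned for Slc6a4 (0.32), Rorb (0.0515), Cck (0.0938), Trh (0.35) and Egr4 (0.20). Leaving out 1 library at a time turned the sign of 8 genes, whose values ran from -5.12 to 0.24 for Slc6a4, -0.25 to 0.00739 for Arntl2, -0.14 to 0.0359 for Rorb, -0.0179 to 0.065 for Klf9, -0.0302 to 0.17 for Th, -0.30 to 0.19 for Cck, -1.84 to 0.36 for Trh and -1.21 to 0.22 for Egr4. The cause was not tested. Over the alternatives the log2 fold change ran from -1.30 to -1.07 for Gapdh and from -1.08 to -0.36 for Tuba1c. No paired analysis was possible because each mouse gave 1 library and the labels pair no mice across the groups. Depth limits genes of few counts such as Slc6a4, which was at 0 CPM in at least 1 wildtype-labelled library.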

Other observations

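Rpl29, a ribosomal protein gene with processed copies in the genome, was chosen after its values were seen. It was at 4.96 to 13.4 CPM in 7 of the 11 mutant-labelled libraries (mice 36, 37, 38, 48, 59, 61 and 64) and at 0.111 to 0.497 CPM in mice 39, 60, 62 and 63, against 0.21 to 0.597 CPM in the 5 wildtype-labelled libraries. The 2 levels did not follow the clock output score, since mice 59 and 61 lay at the higher and mouse 60 at the lower. The log2 fold change was 3.77 (SE 1.34, adjusted p = 0.999, edgeR).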
